A study of Homo sapiens with 10 samples.

Results

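The genes described here are 10 inflammatory cytokines of the senescence secretome: IL6, CXCL8, CXCL1, CXCL2, IL1A, IL1B, CCL2, LIF, IL11 and CSF2. They were taken by gene symbol from a table of read counts with 22626 rows, in which all 10 have a row. The libraries were made from ARPE-19, an established human cell line of the retinal pigment epithelium (RPE), grown in DMEM with fetal bovine serum. The control group was kept for 48 h in medium with 5.5 mM glucose and 32 mM mannitol (n = 5 libraries), and the high glucose (HG) group for 48 h in medium with 37.5 mM glucose (n = 5 libraries). Mannitol is a sugar alcohol that balances the dissolved molecules of the 2 media. The labels name it only for the control medium, so the added glucose and the absence of mannitol cannot be told apart. All libraries come from a single cell line, and the labels do not say whether they were separate cultures. The study's methods speak of independent experiments for its data in general, without naming the sequenced libraries, so p-values measure only the spread between these libraries, which may be technical.

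Senescent cells stop dividing and release cytokines, chemokines, growth factors and proteases, a mixture called the senescence-associated secretory phenotype. Interleukin 1 alpha and beta act through a shared receptor that activates NF-κB, and NF-κB and C/EBPβ switch on IL6, CXCL8 and the related chemokines. CCL2 recruits monocytes, CXCL1, CXCL2 and CXCL8 recruit neutrophils, IL6, LIF and IL11 signal through the shared receptor chain gp130 (IL6ST), and CSF2 sustains granulocytes and macrophages. In the eye, the RPE is a known source of several of these factors, CCL2 and CXCL8 among them. RNA was measured here and secreted protein was not.

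Total counts were between 33039260 and 45864176 in the control group and between 32448991 and 44400714 in the HG group, and a gene without reads could still be present at up to 3 counts, or 0.0654 to 0.0925 CPM (counts scaled to library size), which covers counting error only. The libraries fell into 2 classes of depth, 4 with totals between 32448991 and 33056923 (control replicates 1 and 4, HG_4 and HG_5) and 6 with totals between 39867119 and 45864176. HG libraries are named by their deposited column, because the labels give only their group. On the second principal component (14.9% of the variance), control replicate 2 and HG_1 stood apart from the other 8 libraries. TXNIP, which glucose induces, had 0.978 ± 0.224 CPM in the controls and 8.72 ± 2.76 CPM in the HG libraries (SD, n = 5 each). Of 10 RPE markers 7 were high enough to be tested, with OTX2 and MITF present and RPE65, which defines the visual cycle of the mature RPE, at no more than 6 counts in any library. PMEL, a protein of pigment granules, was the RPE marker called, at 3.59 ± 0.426 CPM in the controls and 2.19 ± 0.354 CPM in the HG libraries (log2 fold change -0.72, edgeR adjusted p = 0.00854). The summed level of the 10 ranged from 167 to 718 CPM in the controls, where BEST1 alone ranged from 0.577 to 551, and from 150 to 163 CPM in the HG libraries. Of 4 keratins of this line, KRT7, KRT8 and KRT18 were lower in the HG group. Markers of other cell types moved with the groups in part: CD68, a lysosomal protein that macrophages hold in quantity, was called higher in the HG group (log2 fold change 0.70), from a range of 54.5 to 81.1 CPM to one of 102 to 143 CPM. It makes up nearly all of the summed level of 10 leukocyte markers (54.8 to 81.4 CPM in the controls and 102 to 144 CPM in the HG libraries), as each of the other 9 was untested and at no more than 0.243 CPM in any library, with PTPRC at no more than 4 counts and CD3E, AIF1 and TYROBP at 0. The sum of 7 fibroblast and mural markers, 3 of them tested and all 3 lower in the HG group, ranged from 269 to 317 CPM in the controls and from 152 to 190 CPM in the HG libraries. The sum of 5 endothelial markers, of which 2 were tested and KDR was lower, ranged from 2.93 to 5.05 CPM in the controls and from 2.13 to 3.13 CPM in the HG libraries. The part of these markers in the cytokine values was not tested. In bulk RNA, fewer cells of a type and less RNA per cell cannot be told apart.

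The start regions of 4 members are shown because they hold the letters to which NF-κB is known to bind, and because CXCL1, which was lower in the HG group, and CXCL2 differ little there. The sequences are the 150 bases before the RefSeq start on GRCh38.p14, written 5′ to 3′ on the strand of the gene, and capitals mark matches to GGNNTTTCC (κB letters) and TGANTCA (AP-1 letters), both searched on both strands. The positions are chr4:73869243-73869392 on the plus strand for CXCL1, chr4:74099196-74099345 on the minus strand for CXCL2, chr4:73740419-73740568 on the plus strand for CXCL8 and chr7:22727050-22727199 on the plus strand for IL6.
CXCL1: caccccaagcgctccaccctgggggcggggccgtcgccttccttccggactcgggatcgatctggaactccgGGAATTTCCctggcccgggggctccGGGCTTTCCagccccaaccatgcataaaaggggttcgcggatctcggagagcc
CXCL2: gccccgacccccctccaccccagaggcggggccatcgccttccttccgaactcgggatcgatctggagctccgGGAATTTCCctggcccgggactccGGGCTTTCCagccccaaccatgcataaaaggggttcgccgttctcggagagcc
CXCL8: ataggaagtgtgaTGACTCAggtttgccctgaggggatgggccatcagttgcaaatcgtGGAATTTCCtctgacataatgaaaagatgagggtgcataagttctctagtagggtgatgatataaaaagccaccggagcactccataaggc
IL6: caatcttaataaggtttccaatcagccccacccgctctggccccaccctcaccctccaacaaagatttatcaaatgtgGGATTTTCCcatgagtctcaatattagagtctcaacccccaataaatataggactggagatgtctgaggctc

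CXCL1 holds κB letters that begin 78 and 53 bases before its start, and CXCL2 holds the same letters at 77 and 53 bases. When aligned, the CXCL1 and CXCL2 regions had 134 of 150 bases in common (89.3%), with 15 mismatches and 2 gaps, whereas the other pairs of the 4 regions had between 47.3% and 51.3% in common. CXCL8 holds its κB letters 91 bases and its AP-1 letters 137 bases before the start, and IL6 holds κB letters 72 bases before the start. RefSeq start regions were at hand for 8 members, all except LIF and CCL2. The κB letters occurred within 250 bases before the start in these 4 of the 8, against 5.48% of 35116 promoters, and the AP-1 letters in 3 of the 8 (CXCL8, IL1A and IL11), against 6.57%. These motifs were chosen with the sequences in view, and a match describes letters and not binding. GENCODE release 29 also has transcripts of CXCL2, CXCL8 and IL6 that start further upstream.

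The other end of the transcripts was also examined. The 3′UTR of the longest coding transcript of each of the 10 members holds between 1 and 10 copies of ATTTA, the core of the AU-rich element through which short-lived cytokine messages are degraded. Over protein-coding genes the median was 1 copy. The density in the members was between 2.18 and 24.9 copies per kb. The median over protein-coding genes was 1.52, with very short 3′UTRs left out. The longer form, ATTTA with TT on either side, occurred in 7 of the 10, all but IL6, IL1A and CCL2. It occurred in 8.0% of the 19535 protein-coding genes with a 3′UTR. CCL2 had a single ATTTA in its 379 bases of 3′UTR, and CXCL2 had 10 in 724 bases.

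Levels of the 10 genes were compared with each other on the FPKM scale, which divides by transcript length. CCL2, CXCL8 and LIF formed the upper end, at means over all 10 libraries of 114, 90.0 and 46.5 FPKM. CXCL1 followed at 10.8, IL1B at 5.94, IL6 at 3.09, CXCL2 at 1.65 and CSF2 at 1.04 FPKM. IL11 lay at 0.264 and IL1A at 0.0355 FPKM. Neighbours in this order had ranges that did not overlap for CXCL8 and LIF, for LIF and CXCL1, and for IL1B and IL6. IL6 and CXCL2, CSF2 and IL11, and IL11 and IL1A had overlapping ranges, although the first of each pair was the higher in all 10 libraries. CCL2 was above CXCL8 in 6 of the 10 libraries: its mean was 155 ± 19.1 FPKM in the control group, where CXCL8 had 96.2 ± 6.16, and 72.8 ± 13.8 FPKM in the HG group, where CXCL8 had 83.9 ± 11.9 (SD, n = 5 each). Among all 14936 rows tested, LIF stood at percentile 94.1 of mean CPM, CXCL8 at 91.9 and CCL2 at 85.0, while IL6 stood at 20.6, CSF2 at 8.58 and IL11 at 5.68.

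**Figure D1:**
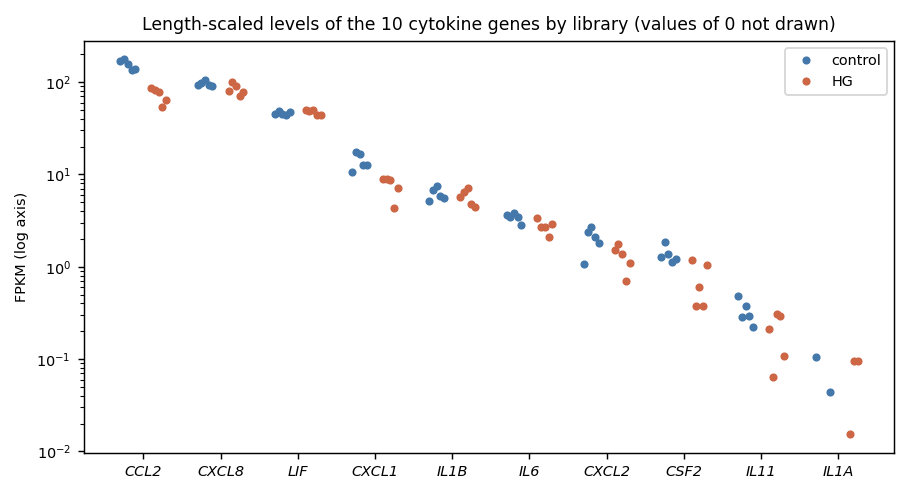
Level of the 10 cytokine genes in FPKM on a log axis, with 1 point per library (5 control, 5 HG) genes in order of their mean, and values of 0 not drawn. CCL2, CXCL8 and LIF lie above 40 FPKM in all 10 libraries, and IL1A, with 5 libraries at 0, lies at the lower end.

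Between the groups, CCL2 and CXCL1 were called lower in the HG group and no member was called higher. Of the 9 members that passed the filter on low counts, 2 had an adjusted p under 0.05 in edgeR's quasi-likelihood test, both lower, against 15.4% of the 14936 rows tested in either direction and 7.80% lower. None of the 9 was called higher, where 7.62% of all rows were. The number higher at an unadjusted p under 0.05 was 0 with edgeR, and DESeq2 also called 0 higher. Of the 9, 8 had a log2 fold change below 0 (49.8% of all rows), with a median of -0.64 against 0.001 over all rows, and 6 had an unadjusted p under 0.05, all lower (14.4% of all rows were lower at that limit). This last count was 2 without control replicate 2 or without HG_4, 3 without control replicate 3, control replicate 4 or HG_5, and between 4 and 6 without any of the other 5 libraries. CCL2 and CXCL1 also had a fold change above 1.5, as 2.02% of all rows did among those called lower. They were the members whose groups did not overlap, and no member lay wholly above its controls, where 6.74% of all rows did. These counts describe the 9 members and carry no test of the list.

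**Figure D2:**
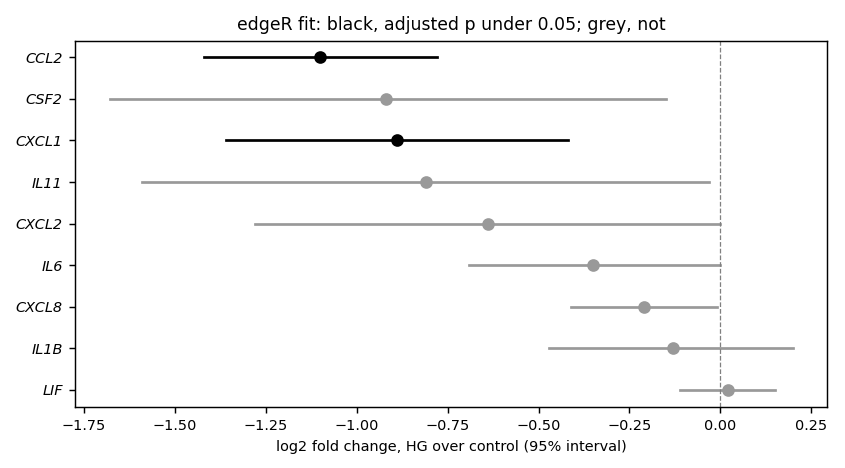
Log2 fold change (HG against control) of the 9 tested cytokine genes from edgeR (points) with 95% confidence intervals (lines), black for an adjusted p under 0.05 and grey otherwise, and a dashed line at 0. CCL2 and CXCL1 are black, the upper ends of the CXCL2, IL6, CXCL8 and IL11 intervals lie at or close to 0, and the intervals of IL1B and LIF extend to both sides of 0.

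Among the chemokines, CCL2 (ENSG00000108691, chromosome 17, 34255218 to 34257203 on GRCh38) changed most. Control replicates 1 to 5 were at 141, 149, 130, 116 and 112 CPM, and HG_1 to HG_5 at 78.1, 66.4, 62.4, 43.9 and 51.7 CPM. The groups did not overlap, as in 6.91% of all rows with the HG group lower, and the highest HG library had 78.1 CPM against 112 CPM in the lowest control. The mean fell from 130 ± 15.5 to 60.5 ± 13.3 CPM, which is -1.10 on the log2 scale (standard error, SE, 0.145, edgeR adjusted p = 0.000731), or 0.467 times the control level with a 95% interval of 0.375 to 0.583. Its fold change was at percentile 1.25 of all rows tested, counted from the most negative. Within the 6 deeper libraries the log2 fold change was -0.92 (edgeR adjusted p = 0.0284) and within the 4 shallower ones -1.42 (edgeR adjusted p = 0.0326), and with depth class as a term it was -1.12. With the leave-out of any single library CCL2 passed the test, at log2 fold changes between -1.20 and -1.0.

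CXCL1 (ENSG00000163739, chromosome 4, 73869393 to 73871242), a ligand of the neutrophil receptor CXCR2, was the other member called lower. Control replicates 1 to 5 were at 13.4, 23.1, 21.1, 16.2 and 15.8 CPM, and HG_1 to HG_5 at 11.8, 11.2, 10.9, 5.44 and 9.03 CPM. The highest HG library, HG_1, lay just below control replicate 1, and HG_4 was the lowest of the 10. The mean fell from 17.9 ± 4.02 to 9.67 ± 2.58 CPM, which is -0.89 on the log2 scale (SE 0.214, edgeR adjusted p = 0.0176), or 0.54 times the control level with an interval of 0.389 to 0.749. It passed without any single library, and it did not pass within the 6 deeper libraries (log2 fold change -0.83, edgeR adjusted p = 0.0537) or the 4 shallower ones (-1.03, edgeR adjusted p = 0.11). With depth class as a term it passed, at -0.91 (edgeR adjusted p = 0.00338). Permuting the group labels over all 252 arrangements (exact test, two-sided) gave p = 0.00794 for both CCL2 and CXCL1, the smallest value this test can give.

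CXCL2 (ENSG00000081041), another ligand of CXCR2 that lies near CXCL1 on chromosome 4 (74097035 to 74099293), did not pass the test. Control replicates 1 to 5 were at 1.30, 2.94, 3.25, 2.51 and 2.18 CPM, and HG_1 to HG_5 at 1.92, 2.08, 1.63, 0.851 and 1.34 CPM. Control replicate 1 was within the HG range, and the other 4 controls were above every HG library. The log2 fold change was -0.64 (SE 0.291, edgeR adjusted p = 0.179), from counts between 28 and 135 per library. No 100-base window of the CXCL1 or CXCL2 transcript occurs in a transcript of another gene of GENCODE release 29.

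CXCL8, the gene of interleukin 8, was much higher in level and moved little. Control replicates 1 to 5 were at 162, 177, 185, 162 and 156 CPM, and HG_1 to HG_5 at 144, 171, 157, 121 and 134 CPM. HG_2 and HG_3 lay among the controls and the other 3 HG libraries below them. The control mean was 168 ± 12.3 CPM and the HG mean 145 ± 19.8 CPM, at 0.864 times the control level with an interval of 0.752 to 0.993, and it did not pass the adjusted limit (edgeR adjusted p = 0.155).

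**Figure D3:**
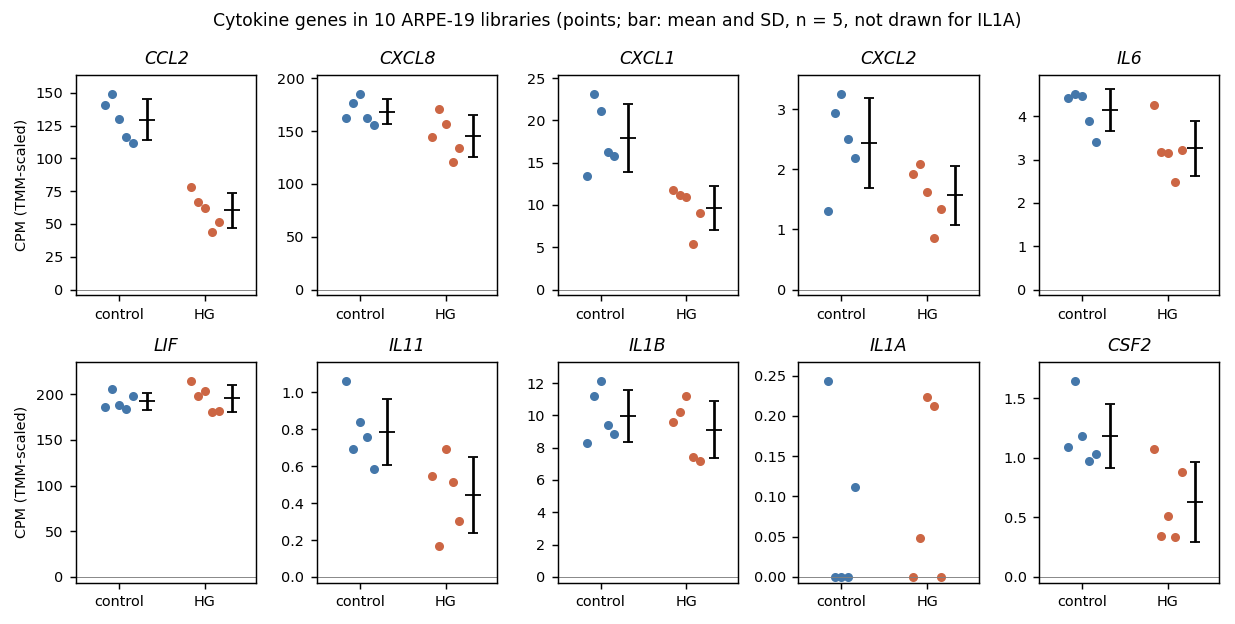
TMM-scaled CPM of each cytokine gene in the 5 control and 5 HG libraries (points) with mean and SD (bars, n = 5, not drawn for IL1A), each panel on its own linear axis from 0. The 2 groups are separated for CCL2 and CXCL1, overlap for the other genes, and IL1A is at 0 in 5 of the 10 libraries.

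Of the gp130 cytokines LIF, IL6 and IL11, none passed the test between the groups. LIF, a survival factor that glial and epithelial cells release under stress, was at 186, 206, 188, 184 and 198 CPM in control replicates 1 to 5 and at 214, 198, 203, 180 and 182 CPM in HG_1 to HG_5. The ranges overlapped almost fully, with means of 193 ± 9.38 and 195 ± 14.3 CPM. The fold was 1.01 with a 95% interval of 0.93 to 1.11 (edgeR adjusted p = 0.862), the narrowest interval among the members. The sign of this small difference turned without HG_1 (log2 fold change -0.01) and within the 4 shallower libraries (-0.03). Of the windows of the LIF transcript, 1.99% also occur in transcripts of AC004264.1 on the other strand.

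IL6, the most studied cytokine of senescent cells, was at 4.43, 4.51, 4.47, 3.90 and 3.41 CPM in control replicates 1 to 5 and at 4.26, 3.18, 3.14, 2.49 and 3.22 CPM in HG_1 to HG_5. HG_1 was within the control range and the other 4 HG libraries were below the lowest control. The log2 fold change was -0.35 (SE 0.155, edgeR adjusted p = 0.171), and the exact permutation test on IL6 alone gave p = 0.0476. Without HG_1 IL6 passed, at a log2 fold change of -0.46 (edgeR adjusted p = 0.0428). IL6 lies on chromosome 7 from 22725884 to 22732002, with STEAP1B and the antisense gene AC073072.1 on the other strand, and 19.4% of its windows also occur in AC073072.1. Whether the counting used strand is not given in the sources used here, so reads of IL6 and of its antisense partner may not have been told apart. STEAP1B itself had 6.27 ± 1.02 CPM in the controls and 7.46 ± 0.756 CPM in the HG libraries (edgeR adjusted p = 0.209).

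IL11, known for its roles in fibrosis and in blood platelet formation, was near the lower limit of what these libraries resolve, with between 7 and 35 counts per library. Control replicates 1 to 5 were at 1.06, 0.695, 0.842, 0.757 and 0.584 CPM, and HG_1 to HG_5 at 0.546, 0.170, 0.691, 0.517 and 0.304 CPM. HG_3 was within the control range and the other 4 HG libraries were below it. The log2 fold change was -0.81 with a 95% interval of -1.59 to -0.03 (edgeR adjusted p = 0.159), so the call was not passed and the interval covers both a large and a very small difference. The exact permutation p was 0.0159 on log2 CPM and 0.103 on log2(FPKM + 0.1).

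CSF2, the granulocyte and macrophage growth factor GM-CSF, had between 11 and 73 counts per library. Control replicates 1 to 5 were at 1.09, 1.64, 1.18, 0.968 and 1.03 CPM, and HG_1 to HG_5 at 1.07, 0.339, 0.513, 0.334 and 0.882 CPM. HG_1 was within the control range and the other 4 HG libraries were below it. The control mean was 1.18 ± 0.266 CPM and the HG mean 0.627 ± 0.331 CPM, which is -0.92 on the log2 scale (SE 0.348, edgeR adjusted p = 0.107). This estimate was as large as that of CXCL1, with a wider interval (-1.68 to -0.15). Without HG_1 the gene passed, at -1.19 (edgeR adjusted p = 0.0321).

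The 2 interleukin 1 genes lie side by side on chromosome 2, IL1A from 112773915 to 112784590 and IL1B from 112829751 to 112836903. IL1B, the secreted form that caspase-1 cleaves, was at 8.31, 11.2, 12.1, 9.38 and 8.83 CPM in control replicates 1 to 5 and at 9.56, 10.2, 11.2, 7.42 and 7.15 CPM in HG_1 to HG_5. The means of 9.96 ± 1.61 and 9.09 ± 1.75 CPM differed by less than the SD of either group, and the fold of 0.913 had a 95% interval of 0.724 to 1.15 (edgeR adjusted p = 0.64). IL1A, the membrane-bound alarm cytokine regarded as an upstream regulator of this secretome, was barely detected. It had 8, 0, 0, 0 and 5 counts in control replicates 1 to 5 and 0, 2, 10, 7 and 0 counts in HG_1 to HG_5. With 5 of the 10 libraries at 0 and sums of 13 and 19 counts it failed the filter, and a difference between the groups was not detectable at this depth (exact permutation p = 0.762).

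The libraries themselves were not equally placed. HG_4 was the lowest of all 10 libraries in 7 of the 9 tested members, and HG_2 and HG_5 in 1 each. Control replicate 2 was the highest in 4 and control replicate 3 in 3. HG_4 belongs to the shallower class of libraries, and control replicate 2 is 1 of the 2 libraries set apart on the second principal component. Without HG_4 the log2 fold change of CCL2 was -1.0 and that of CXCL1 -0.74, and both passed the test.

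**Figure D4:**
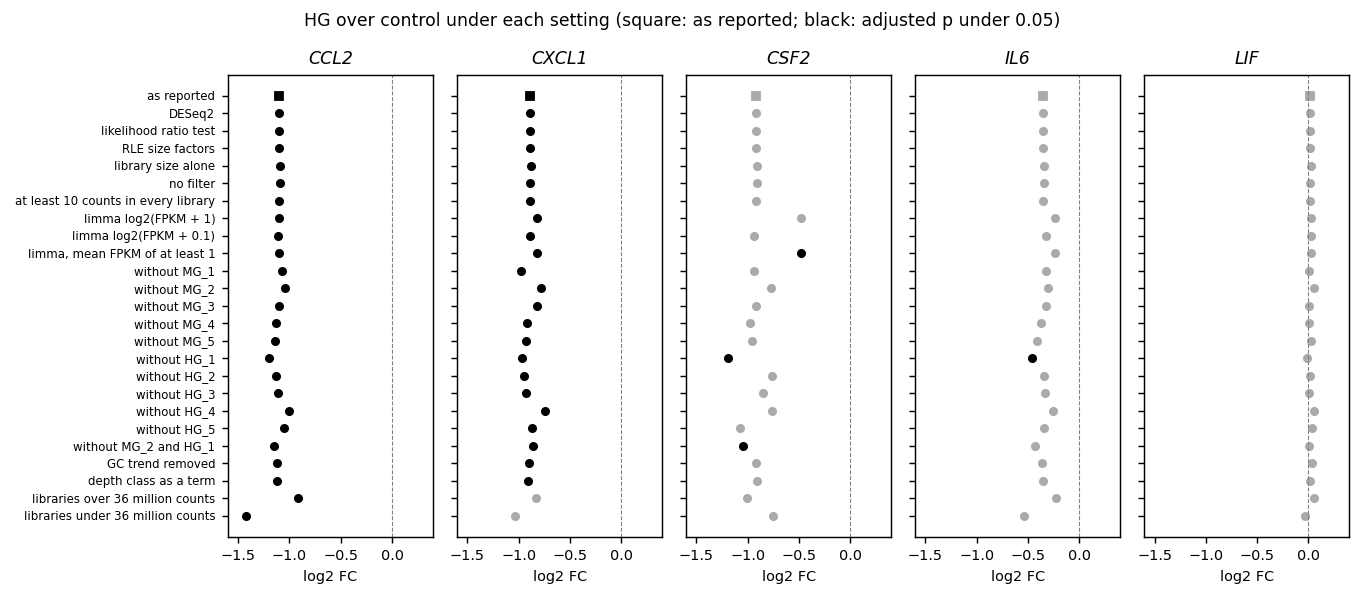
Log2 fold change (HG against control) of CCL2, CXCL1, CSF2, IL6 and LIF under each way of processing (rows, with MG for control libraries), the value as reported as a square, and points black for an adjusted p under 0.05 and grey otherwise. CCL2 stays between -1.42 and -0.92 over the settings other than single leave-outs and LIF between -0.03 and 0.05.

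Around the members, the genes of 8 lists were examined. They covered receptors with an antagonist, signal carriers, NF-κB and C/EBP subunits and feedback genes. The rest covered regulators of message decay, other cytokines, interleukin 1 release and nucleic acid sensing. The lists hold 105 symbols, of which MB21D1 and TMEM173 are older names of CGAS and STING1. The 103 genes all have a row and 75 were tested. Of these 3 were called higher and 7 lower, 13.3% in all against the 15.4% of all rows. Most of these calls rested on every library being present: when each library was left out in turn, the number called was between 3 and 6 for 9 libraries and 12 without HG_1. TNFAIP3, HNRNPD and CAPN2 were called in all 10 of these fits, and the other 7 genes in between 1 and 4.

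A list of 14 genes held receptors, co-receptors and decoys of the 10 cytokines and the interleukin 1 receptor antagonist IL1RN. Of these, 7 were tested, with a median log2 fold change of 0.09. In this list 1 was called higher and 0 lower (0 lower also at an unadjusted p under 0.05 and with DESeq2). IL6R, which binds interleukin 6 before gp130 is engaged, had 0.682 ± 0.281 CPM in the controls and 1.39 ± 0.393 CPM in the HG libraries (log2 fold change 1.02, edgeR adjusted p = 0.0465), a call that held in 2 of the 10 leave-out fits. IL6ST, the shared gp130 chain, was at 168 ± 20.4 and 161 ± 26.5 CPM, LIFR at 7.44 and 8.76 CPM, IL1R1 at 4.93 and 5.81 CPM and its partner IL1RAP at 22.0 and 20.9 CPM, and none of these passed. Receptors of the chemokines and of CSF2 were nearly absent, as CXCR1, CXCR2 and CCR2 had no more than 2 counts in any library, CSF2RB no more than 4, and CSF2RA and the decoys ACKR1 and IL1R2 had 0.

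Of the 15 signal carriers below these receptors, 0 were called higher and 2 lower, with a median of -0.04. At an unadjusted p under 0.05 the numbers were 0 higher and 3 lower, and DESeq2 also called 0 higher. MYD88, the adaptor of the interleukin 1 receptor, went from 39.6 to 33.4 CPM (log2 fold change -0.24, edgeR adjusted p = 0.0396), and STAT3, the factor that gp130 activates, from 92.8 to 83.0 CPM (-0.16, edgeR adjusted p = 0.0499). MYD88 was called in 2 and STAT3 in 1 of the 10 leave-out fits, and edgeR's likelihood ratio test called 0 of the 15 lower, with 2 lower at an unadjusted p under 0.05. Of the NF-κB and C/EBP list, 8 of 9 were tested, with 1 higher and 0 lower (0 lower also at an unadjusted p under 0.05 and with DESeq2). CEBPB, which drives IL6 and CXCL8 in senescent cells, went from 64.9 ± 6.10 to 80.4 ± 10.3 CPM (log2 fold change 0.31, edgeR adjusted p = 0.0449, called in 2 of the 10 leave-out fits). NFKB1 was at 49.2 and 49.1 CPM and RELA, the subunit that activates transcription, at 86.4 and 80.9 CPM, and neither passed.

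Of 11 feedback genes of NF-κB and STAT3, 9 were tested with a median of -0.16. Of these 1 was called lower, with 3 lower at an unadjusted p under 0.05. Without control replicate 2 and HG_1 together 3 were called lower, with the trend on GC content removed 1 was called higher and 4 lower, and without HG_1 alone 2 were called lower. TNFAIP3, the enzyme A20 that NF-κB induces and that restrains it, fell from 28.8 ± 1.89 to 20.4 ± 3.2 CPM (log2 fold change -0.50, edgeR adjusted p = 0.00849), and the control range of 27.7 to 32.2 CPM did not overlap the HG range of 16.4 to 24.3 CPM. NFKBIA, the inhibitor IκBα, was at 46.6 and 41.6 CPM, NFKBIZ at 24.1 and 20.6 CPM, TNIP1 at 122 and 129 CPM and NFKBIE at 17.2 and 19.6 CPM, while BCL3, an IκB family member, was between 13.0 and 18.3 CPM in the controls and between 9.67 and 17.1 CPM in the HG libraries (log2 fold change -0.43, edgeR adjusted p = 0.101), and none of these passed. Of the 10 regulators that act on AU-rich or stem-loop elements of messages, 1 was called lower. The median was -0.07 and 3 were lower at an unadjusted p under 0.05. DESeq2 called 3 lower, and edgeR's likelihood ratio test 2. HNRNPD, which binds AU-rich elements, fell from 303 ± 5.96 to 269 ± 11.4 CPM (log2 fold change -0.18, edgeR adjusted p = 0.0125), while ZFP36L1 and KHSRP, which promote decay, were at 268 and 264 CPM and at 258 and 261 CPM. ZC3H12A, the nuclease Regnase-1 that degrades IL6 messages, was at 40.1 ± 2.78 and 31.6 ± 5.35 CPM (log2 fold change -0.34, edgeR adjusted p = 0.0559), ELAVL1, which stabilizes AU-rich messages, at 128 and 124 CPM, and TIAL1 at 114 and 105 CPM (edgeR adjusted p = 0.0716).

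Of 27 other cytokines, 13 were tested with a median of -0.12, and 1 was called, CLCF1, a gp130 cytokine that went from 40.9 to 31.6 CPM (log2 fold change -0.37, edgeR adjusted p = 0.0388, called in 2 of the 10 leave-out fits). IL18 was at 159 and 145 CPM, MIF at 143 and 161 CPM and CSF1 at 85.4 and 96.6 CPM, and none passed. TNF had 0 counts in all 10 libraries. Of 11 genes of interleukin 1 processing and release, 8 were tested, with 1 higher and 2 lower and a median of -0.04. CAPN2, a calpain of the family that cleaves the interleukin 1 alpha precursor, fell from 948 ± 46.5 to 805 ± 17.7 CPM (log2 fold change -0.24, edgeR adjusted p = 0.00404). NLRP1, an inflammasome sensor, went from 100 ± 28.2 to 57.4 ± 15.3 CPM (-0.80, edgeR adjusted p = 0.0323) and HAX1 from 62.1 to 77.8 CPM (0.33, edgeR adjusted p = 0.0318), each called in 4 of the 10 leave-out fits. Of 6 genes of nucleic acid sensing 5 were tested. With all libraries and no GC correction 0 were called by edgeR or DESeq2, and 1 had an unadjusted p under 0.05. With edgeR, 1 was called higher without HG_4 and 1 with the trend on GC content removed. TBK1 was at 50.7 and 50.4 CPM, IRF3 at 47.6 and 43.9 CPM and IKBKE at 19.0 and 18.1 CPM, and none passed. STING1, which relays cytosolic DNA, was at 2.23 ± 0.332 and 3.28 ± 0.819 CPM (edgeR adjusted p = 0.0973).

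**Figure D5:**
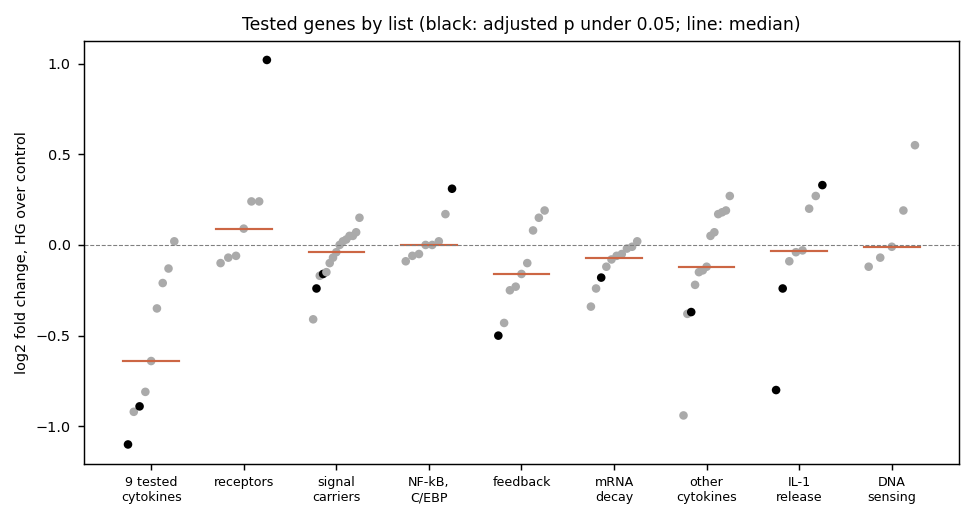
Log2 fold change (HG against control) of each tested gene in the 8 lists and of the 9 tested cytokine genes, with the median as a line and points black for an adjusted p under 0.05 and grey otherwise. List medians lie between -0.16 and 0.09, and the median of the cytokine genes is -0.64.

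Of the cell cycle inhibitors that mark senescence, CDKN1A, which encodes p21, rose from 513 ± 38.7 to 705 ± 66 CPM (log2 fold change 0.46, edgeR adjusted p = 0.00183). CDKN2A, which encodes p16, was at 10.8 ± 2.01 and 8.68 ± 1.11 CPM and did not pass (edgeR adjusted p = 0.154).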

How the data were processed

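RNA of ARPE-19 cells (5 control and 5 HG libraries) was sequenced after extraction with Trizol and library preparation with a VAHTS Universal V6 kit. The authors deposited a table of counts, whole numbers of reads per gene and library without normalization, and a table of FPKM values, in which the authors scaled the same libraries per kilobase of transcript and by depth. The submitters' processing notes name fastp 0.20.1, HISAT2 2.2.1 and GRCh38. The counting program, annotation and strand setting are not given in the sources used here. Total counts were between 32448991 and 45864176, which sets the precision of the low genes.

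From the counts, the groups were compared with edgeR 4.0.16 in R 4.3.3 (default filter on low counts, TMM, quasi-likelihood test, Benjamini-Hochberg adjustment over all 14936 rows tested). CPM values are scaled by TMM. Single genes were also tested with a two-sided exact permutation test of mean log2 CPM (prior count 2), and intervals are at 95%. DESeq2 1.42.0, limma 3.58.1 on log2(FPKM + 1) and log2(FPKM + 0.1), other size factors and filters, and the leave-out of each library were alternatives. The 2 depth classes as a term and as separate fits were added after seeing the data. The main edgeR fit, its likelihood ratio test, RLE size factors, DESeq2, limma and the GC correction were tested on simulated data. The permutation test and the motif search were checked on small made cases. The other filters, library size alone, the depth settings and the correlations were not tested on simulated data. The members and lists were chosen with earlier results of these data known. From each list the text names called genes and, for most lists, some of the 4 others of the highest mean CPM. Which of these 4 are printed was chosen after the values were seen. For the signal carriers and interleukin 1 release only called genes are named. CXCL3 is named as the gene most like CXCL1. BCL3, ZC3H12A, genes with few or no counts and the markers other than the highest lie outside this rule and were chosen in the same way. Gene positions come from GENCODE release 29, and start regions from RefSeq. The genes most like LIF and 1 leukocyte marker are not reported here.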

Additional observations from a re-analysis of the deposited data

How the results depend on the processing

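CCL2 was lower with an adjusted p under 0.05 in all 14 settings other than single leave-outs (log2 fold change -1.42 to -0.92) and in all 10 leave-outs (-1.20 to -1.0). CXCL1 passed in 12 of the 14 and in all 10 leave-outs (-0.98 to -0.74), and not within the 6 deeper libraries (-0.83) or the 4 shallower ones (-1.03), where the samples are fewer. In these 2 subsets 1 member was called in each, 346 and 370 genes were called over all rows (2303 with all libraries), and 121 and 127 were lower with a fold change above 1.5 (302 with all). Of the list genes 0 and 1 were called there by edgeR, with 10 and 17 at an unadjusted p under 0.05, against 10 called with all libraries, where DESeq2 called 3 higher and 9 lower. CSF2 passed with limma where genes under a mean of 1 FPKM were dropped (-0.48, on the log2(FPKM + 1) scale) and without control replicate 2 and HG_1 (-1.05), so that 3 members were called in each. Over all rows 4035 genes were called without these 2 libraries and 3479 with the trend on GC content removed, and 16 and 17 of the list genes. The rows lower with a fold change above 1.5 numbered 126 with limma on log2(FPKM + 1) and 122 with the limit on mean FPKM, a scale that understates the change of low genes. LIF reversed within the shallower libraries (-0.03). The exact permutation p of IL11 was 0.103 on log2(FPKM + 0.1), and the cause was not tested.

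When each library was left out in turn, the genes called over all rows ranged from 1648 (without HG_3) to 2993 (without HG_1), those lower with a fold change above 1.5 from 257 to 358, the members called from 2 to 4, and the list genes called from 3 to 12. The 4 members were called without HG_1, when IL6 and CSF2 were added. Log2 fold changes ranged from -0.46 to -0.26 for IL6, from -1.19 to -0.76 for CSF2, from -0.01 to 0.05 for LIF, from -1.03 to -0.60 for IL11, from -0.79 to -0.48 for CXCL2, from -0.28 to -0.15 for CXCL8 and from -0.22 to -0.05 for IL1B. Depth limits IL1A, and IL11 and CSF2 to a lesser degree.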

Other observations

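The genes whose levels varied most like a member across the 10 libraries were found by Pearson correlation of log2 CPM with each group mean removed, over 12365 rows with a symbol and a mean of at least 1 CPM. The 10 points share depth and composition, so these values describe the libraries and carry no p. CXCL1 varied most like CXCL3 (r = 0.959), another chemokine of its family. TNFAIP2 (0.948), which NF-κB and tumour necrosis factor induce, and ARHGEF2 (0.939) came next. CXCL3 was at 10.0 and 7.68 CPM in the control and HG groups, with a log2 fold change of -0.38 that did not pass (edgeR adjusted p = 0.0956). CXCL8 varied most like SELENOS (0.921), RTL5 (0.919) and the NF-κB inhibitor TNFAIP3 (0.913). CCL2 varied most like ZNF467 (0.968), PPIL3 (0.954) and PBXIP1 (0.947), and no other chemokine was among its nearest 3. The nearest to IL6 were TPD52L1 (0.938), ID3 (0.934) and NUMBL (0.923), those to IL1B were LETMD1 (0.96), LGMN (0.943) and GARIN5A (0.932), and those to CXCL2 were INSR (0.958), KRBOX4 (0.949) and SNX27 (0.946).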
